A study of Mus musculus with 6 samples.

Results

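The 9 genes described here are proneural transcription factors and early markers of postmitotic neurons: Neurog1, Neurog2, Neurod1, Tubb3, Stmn2, Map2, Elavl3, Dcx and Sox11. They were chosen by name from the 24062 genes of the deposited table, and all 9 are in it. PolyA-selected RNA was measured in heads of mouse embryos on a C57BL/6 background at embryonic day 8.5, in homozygous mutants (Prdm15 tm1a-/-), heterozygotes (Prdm15 tm1a+/-) and wild type (Prdm15 tm1a+/+), with 2 libraries for each genotype. The tm1a allele is a knockout-first insertion into Prdm15, which encodes a PRDM zinc finger protein, and mutant embryos carry 2 copies of it, heterozygotes 1 and wild type 0. The series asks how Prdm15 acts on forebrain development, and the values below show how far RNA of these genes of early neurogenesis differed between the heads. Since the labels say nothing on litters or pooling, the p-values reflect only how these libraries vary, which may be technical.

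Neurogenesis starts when a basic helix-loop-helix factor such as Neurog1 or Neurog2 builds up in a neuroepithelial or placodal cell. Paired with an E protein, the factor binds E-boxes, turns on later factors such as Neurod1, and raises Notch ligands that hold neighbouring cells back through Hes genes. Newborn neurons then switch on neuronal tubulin, microtubule-associated proteins and Elav RNA-binding proteins. In mouse heads of this stage the first neurons are only beginning to form, in the neural tube and in the cranial placodes, where Neurog1 and Neurog2 act in sensory neuron precursors.

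Reads assigned to genes numbered 39068327 and 29412227 in mutant, 31236970 and 29570459 in heterozygous and 40439234 and 34656271 in wild-type libraries, so 3 reads, taken as the limit that a count of 0 allows, equal 0.0742 to 0.102 CPM (counts scaled to library size, the unit used for single libraries here). Mutant replicate 1 and wild-type replicate 2 each have a count file that bears the other's title, and each file matched the RPKM column of the title it carries: 0 genes differed in being 0, and 100% of at least 11927 genes with 50 or more reads lay within 0.1% of a constant ratio. Files are therefore used by title, and results with the files as attached are given beside the counts of genes that passed. Xist and Y-linked reads marked both mutant libraries and wild-type replicate 2 as female, and both heterozygous libraries and wild-type replicate 1 as male. Prdm15 was counted at 26.6 and 32.0 CPM in mutant, 28.3 and 31.8 CPM in heterozygous and 35.2 and 32.6 CPM in wild-type libraries (log2 fold change of mutant against wild type -0.21, SE 0.12, adjusted p = 0.221 in edgeR's quasi-likelihood test). Whole-gene counts do not separate the transcripts that an insertion alters, so this does not check the genotypes.

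RefSeq promoters (GRCm38.p6) were matched for 8 of the 9 genes. The 250 bases before the start site are shown for 4 of them, 5′ to 3′ on the gene's strand, with every E-box (CANNTG, read on both strands, 1 palindromic motif) in capitals. Neurog2 and Map2 are shown as examples of genes that stayed lower in mutant heads under every scaling tried. Elavl3 and Sox11 are examples of genes whose sign turned under a scaling to neural genes, as given further on. Neurog1 also stayed lower and the sign of Dcx also turned, but neither is shown, and neither had an E-box in this window. The 4 sequences thus do not sort the genes by E-boxes.
Neurog2, chr3:127632886-127633135, plus strand: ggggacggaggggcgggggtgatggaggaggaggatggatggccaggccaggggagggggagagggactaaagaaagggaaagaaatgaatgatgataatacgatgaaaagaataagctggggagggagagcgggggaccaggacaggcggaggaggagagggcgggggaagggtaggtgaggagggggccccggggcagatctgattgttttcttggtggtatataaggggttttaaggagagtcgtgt
Map2, chr1:66175079-66175328, plus strand: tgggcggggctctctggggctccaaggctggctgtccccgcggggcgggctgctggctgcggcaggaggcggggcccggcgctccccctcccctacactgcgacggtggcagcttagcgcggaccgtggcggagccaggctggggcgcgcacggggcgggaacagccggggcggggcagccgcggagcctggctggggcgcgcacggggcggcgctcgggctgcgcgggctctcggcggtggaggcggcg
Elavl3, chr9:22052024-22052273, minus strand: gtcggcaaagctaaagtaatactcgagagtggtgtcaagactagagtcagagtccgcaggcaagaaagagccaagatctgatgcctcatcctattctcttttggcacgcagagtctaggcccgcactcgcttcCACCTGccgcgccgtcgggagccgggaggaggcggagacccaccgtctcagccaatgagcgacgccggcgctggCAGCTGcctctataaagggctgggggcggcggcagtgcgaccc
Sox11, chr12:27342719-27342968, minus strand: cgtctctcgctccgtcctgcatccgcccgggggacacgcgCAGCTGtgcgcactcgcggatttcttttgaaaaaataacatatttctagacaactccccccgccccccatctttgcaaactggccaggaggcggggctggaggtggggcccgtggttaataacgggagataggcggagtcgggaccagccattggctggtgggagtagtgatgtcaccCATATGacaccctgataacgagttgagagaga
Elavl3 and Sox11 had 2 E-boxes each in this window, and Neurod1 had 1, while Neurog1, Neurog2, Tubb3, Map2 and Dcx had none. Of 32851 promoters of the same length 66.2% held at least 1 E-box and 31.8% at least 2. The E-boxes were CACCTG and CAGCTG in Elavl3, CAGCTG and CATATG in Sox11 and CATATG in Neurod1; CAGCTG is in 13% of all promoters and CATATG in 3.46%. A match is a description of these letters, and more distant sequence was not searched. Base composition also varied among the 4: the G and C content was 81.2% for Map2, 61.6% for Elavl3 and 58% for Neurog2 and Sox11, against a median of 52.4% over all promoters.

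In wild-type heads the genes covered a wide range of levels per length of transcript (RPKM, read counts scaled to transcript length and library size, as the authors deposited them). Sox11, a SoxC factor of neural precursors and young neurons, stood highest at 38.3 ± 0.220 RPKM (SD, n = 2), followed by Tubb3, neuronal beta-tubulin, at 30.4 ± 0.396 RPKM and Stmn2, a microtubule regulator of growing axons, at 18.3 ± 1.44 RPKM. Map2, a microtubule-associated protein of dendrites, followed at 5.24 ± 0.0807 RPKM. The proneural factors were far lower, with Neurog2 at 0.981 ± 0.115 RPKM and Neurog1 at 0.692 ± 0.423 RPKM, and Elavl3, a neuronal RNA-binding protein, lay between them at 0.751 ± 0.0444 RPKM. Dcx, a microtubule protein of migrating neurons, at 0.0674 ± 0.0108 RPKM and Neurod1, a factor downstream of neurogenins, at 0.0366 ± 0.00331 RPKM were the lowest. Wild-type libraries kept this order without overlap between neighbours except for Elavl3 and Neurog1. Neurog1, at 0.991 and 0.393 RPKM, also overlapped Neurog2, at 1.06 and 0.899 RPKM. The order among Neurog2, Elavl3 and Neurog1 is therefore not settled.

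**Figure D1:**
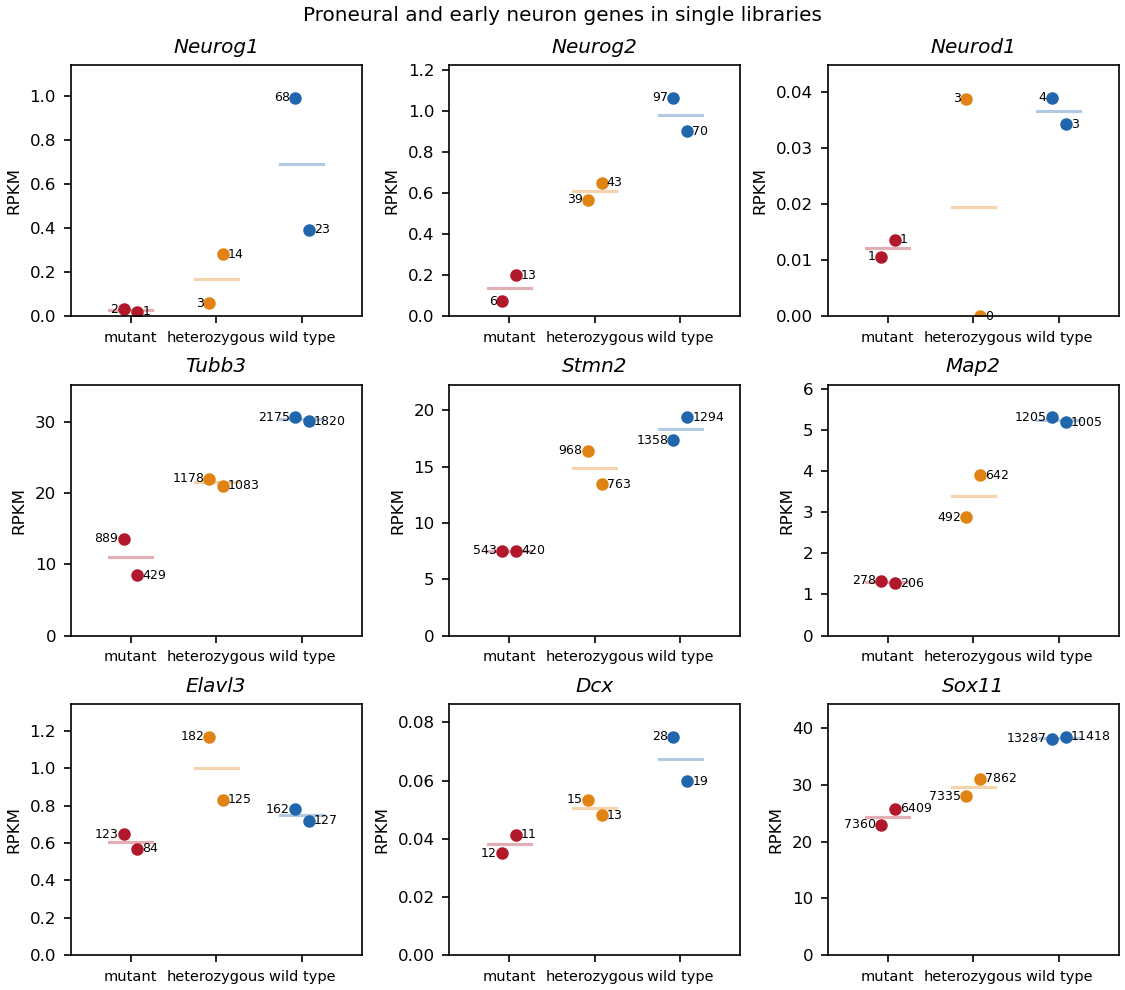
RPKM (vertical axes, linear from 0) of the 9 genes in mutant, heterozygous and wild-type libraries; points are libraries, the number beside each point its raw read count, and bars the mean of 2 libraries. Both mutant points lie below both wild-type points for every gene, while Elavl3 is highest in heterozygous libraries and Neurod1 rests on 0 to 4 reads.

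The first comparison is mutant against wild-type heads. Neurog1 and Neurog2 fell to 4.17% and 13.7% of their wild-type level in mutant heads, and the neuronal microtubule genes Map2, Tubb3 and Stmn2 fell to between 25% and 41.3%. Sox11 fell less, to 64.1%, and Elavl3 and Dcx did not pass the test. Of the 9 genes 8 had enough reads to be tested, and 6 of these were lower (adjusted p under 0.05 in edgeR's quasi-likelihood test, Benjamini-Hochberg over 15187 genes), beside 13.6% of all genes tested. Of the 8 tested genes 0 were higher, beside 17.1%, and 30.6% of all genes passed in either direction. Neurog1, 1 of the 6, had only 2 and 1 mutant reads and entered the test through its other libraries. Its call was lost in several alternatives given below. With the files as attached 0 of the 8 passed, and 0 of all genes did (318 at an unadjusted p under 0.05; DESeq2 was not run on them). In such bulk samples fewer neurons and less RNA per neuron cannot be told apart.

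Markers of several other tissues differed between the genotypes too. Beside the counts below, 17.1% of all genes tested were higher in mutant heads and 13.6% lower. The endothelial and erythroid counts lie near these shares. Yolk sac visceral endoderm markers (18 genes) summed to 5555 and 4650 CPM in mutant, 3090 and 2237 CPM in heterozygous and 168 and 175 CPM in wild-type libraries, with 17 of 17 tested genes higher in mutant heads. Heart markers summed to 2336 and 1400 CPM in mutant, 1972 and 3027 CPM in heterozygous and 277 and 135 CPM in wild-type libraries (14 of 16 tested genes higher). Trunk and tailbud markers, with 7 of 13 higher, summed to 120 and 309 CPM in mutant, 70.7 and 81.1 CPM in heterozygous and 50.6 and 18.9 CPM in wild-type libraries. Neural crest markers, with 8 of 10 lower and 1 higher, summed to 215 and 166 CPM in mutant, 252 and 402 CPM in heterozygous and 581 and 632 CPM in wild-type libraries. Endothelial markers summed to 428 and 385 CPM in mutant, 348 and 386 CPM in heterozygous and 273 and 386 CPM in wild-type libraries (2 of 10 higher), and erythroid markers to 30.9 and 12.3 CPM in mutant, 6.11 and 237 CPM in heterozygous and 168 and 248 CPM in wild-type libraries (1 of 7 lower). Of 9 erythroid genes 8 were counted, and 1 of these was at 0 in all libraries; the counted genes of the other lists each had reads in at least 1 library. Their part in the differences of the neuronal genes was not tested.

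**Figure D2:**
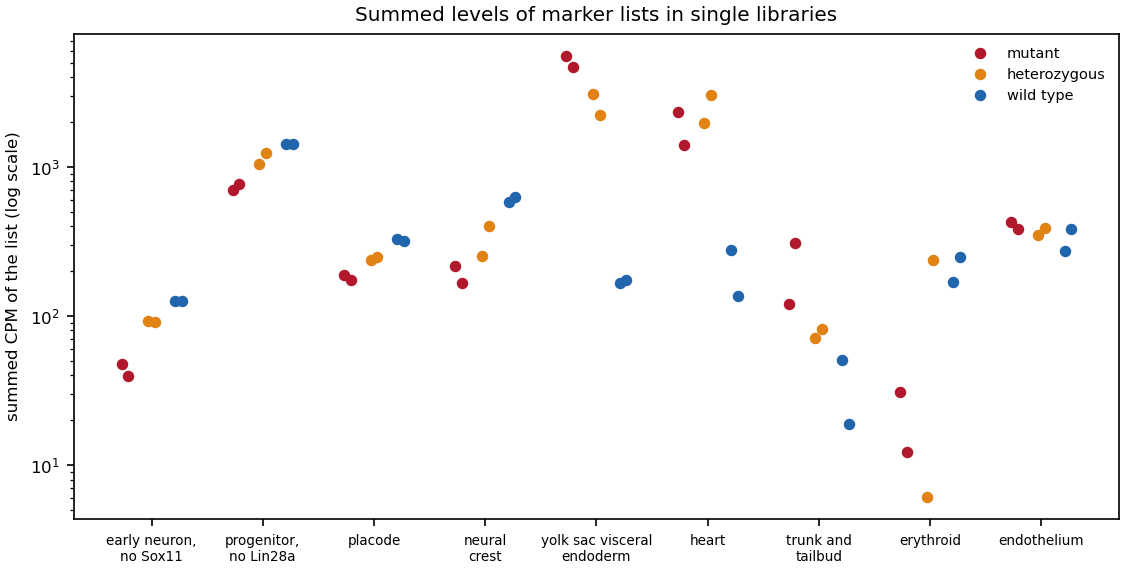
Summed CPM (vertical axis, log scale) of marker lists in each library, with mutant points left, heterozygous points in the middle and wild-type points right within a list. The neuronal sum without Sox11 lies at 47.5 and 39.6 CPM in mutant, 92.2 and 90.7 CPM in heterozygous and 126 and 126 CPM in wild-type libraries, while yolk sac and heart sums are lowest in wild type.

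Neurog2, which drives neuronal precursors in neural tube and placodes (chromosome 3, 127633135 to 127635631, plus strand, GRCm38), had 6 and 13 reads in mutant libraries, against 97 and 70 reads in wild-type libraries. These equal 0.0716 and 0.200 RPKM in mutant and 1.06 and 0.899 RPKM in wild-type libraries, groups that do not overlap. The log2 fold change was -2.87 (SE 0.49), with an adjusted p of 0.0102. Neurog1 (chromosome 13, 56250478 to 56252163, minus strand), its paralog in cranial sensory precursors, had 2 and 1 reads in mutant libraries, against 68 and 23 reads in wild-type libraries. Over summed reads mutant heads held 0.0362 of the wild-type amount per read sequenced (exact 95% interval 0.00732 to 0.109, counting error only). Its log2 fold change was -4.59 (SE 0.99, adjusted p = 0.0201); no mutant library reached the count minimum, so the gene entered the test through its other libraries. Against the wild-type library of the same sex as the mutants alone, replicate 2 with its 23 reads, Neurog1 no longer passed (-3.75, SE 1.10, adjusted p = 0.0776). It did not pass without mutant replicate 1 (adjusted p = 0.104) or mutant replicate 2 (adjusted p = 0.0994) either, while Neurog2 passed on leaving out any 1 of the 6 libraries.

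Neurod1 (chromosome 2, 79452521 to 79456751, minus strand) had 1 read in each mutant library, against 4 and 3 reads in wild-type libraries. The ratio of summed reads was 0.313 with an exact 95% interval of 0.0318 to 1.65, so a difference was not detectable at this depth. Of its exonic bases 201 overlap Cerkl on the same strand, which makes its few reads uncertain.

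Map2 (chromosome 1, 66175273 to 66442583, plus strand) had the steepest fall among the structural genes. It stood at 1.33 and 1.27 RPKM in mutant libraries, against 5.30 and 5.18 RPKM in wild-type libraries, and the libraries differed little within each of these genotypes. The log2 fold change was -2.0 (SE 0.16), with an adjusted p of 0.00111. Tubb3 (chromosome 8, 123411424 to 123422015, plus strand) stood at 13.6 and 8.48 RPKM in mutant libraries, against 30.6 and 30.1 RPKM in wild-type libraries. Its mutant libraries differed from each other more than those of Map2, with a log2 fold change of -1.44 (SE 0.21, adjusted p = 0.00675). Tubb3 has closely similar beta-tubulin paralogs, so the authors' read assignment adds uncertainty to its level. Stmn2 (chromosome 3, 8509360 to 8561606, plus strand) stood at 7.54 and 7.51 RPKM in mutant libraries, against 17.3 and 19.4 RPKM in wild-type libraries. The mutant libraries were almost equal, with a log2 fold change of -1.28 (SE 0.12, adjusted p = 0.00182).

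Sox11 (chromosome 12, 27334264 to 27342574, minus strand) stood at 23.0 and 25.8 RPKM in mutant libraries, against 38.2 and 38.5 RPKM in wild-type libraries. The groups were well apart, but the log2 fold change of -0.64 (SE 0.08, adjusted p = 0.00383) was the smallest of the 6 that passed. Elavl3 (chromosome 9, 22015005 to 22052023, minus strand) stood at 0.647 and 0.569 RPKM in mutant libraries, against 0.782 and 0.719 RPKM in wild-type libraries. Its log2 fold change was -0.29 with a 95% interval of -0.86 to 0.27 (adjusted p = 0.370), an interval that leaves out the changes of Map2, Tubb3 and Stmn2. An overlapping gene on the same strand, Gm49318, shares 256 of its exonic bases and is not among the counted genes. Dcx (X chromosome, 143855842 to 143933311, minus strand) had 12 and 11 reads in mutant libraries, against 28 and 19 reads in wild-type libraries, and its log2 fold change of -0.81 had an interval of -1.74 to 0.12 (adjusted p = 0.155). Both mutant libraries lay below both wild-type libraries in each of the 8 tested genes, beside 36.1% of all genes tested.

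**Figure D3:**
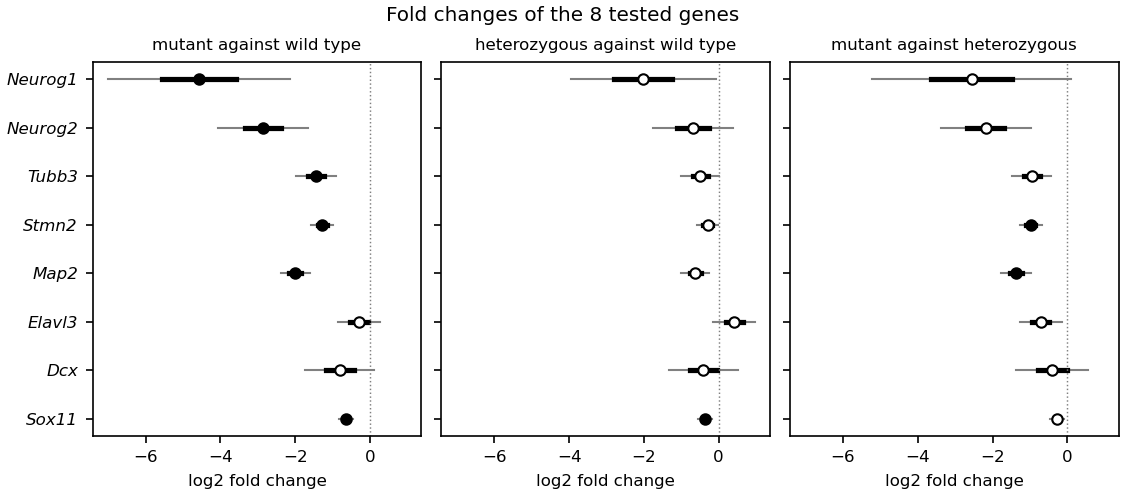
Log2 fold changes (horizontal axes) of the 8 tested genes in the 3 comparisons, by edgeR; thick bars are 1 SE, thin bars the 95% interval, and filled points passed at an adjusted p of 0.05. Mutant against wild type has 6 filled points, heterozygous against wild type only Sox11 and mutant against heterozygous only Stmn2 and Map2.

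The fall of these genes was set beside that of neural progenitor genes, which mark the cells that neurons arise from, by scaling the libraries to their summed reads. Such a sum is led by its most abundant genes and does not measure the amount of neural tissue. In that list of 17 genes 13 were lower in mutant heads and 0 higher, beside 13.6% and 17.1% of all genes tested. Ncan, a neural proteoglycan, changed by -2.01 (SE 0.15, adjusted p = 0.000958) and Ptn, a growth factor of neural progenitors, by -1.87 (SE 0.20, adjusted p = 0.00259). Apart from Lin28a, Ptn had the most reads of the list in wild-type libraries, 11886 and 10735. Sox1, an early neuroectodermal factor, changed by -0.69 (SE 0.06, adjusted p = 0.00175), and Msi1, an RNA-binding protein of progenitors, by -0.49 (SE 0.06, adjusted p = 0.00495); scaled to the list without Lin28a they turned to 0.22 and 0.42. Scaled to the whole list, the same 6 genes passed as lower, among them Neurog2 at -2.50 and Sox11 at -0.27, while Elavl3 turned to 0.082 without passing. Lin28a, an RNA-binding protein made by many early embryonic cells, supplied 44.5% to 61.9% of the reads of that list, so the scaling was repeated without it, a step chosen after the data were seen. Then 3 genes stayed lower: Neurog1 at -3.71 (SE 0.92, adjusted p = 0.00512), Neurog2 at -1.97 (SE 0.47, adjusted p = 0.00443) and Map2 at -1.09 (SE 0.15, adjusted p = 0.000284). Tubb3 at -0.53 (adjusted p = 0.0612) and Stmn2 at -0.36 (adjusted p = 0.0887) no longer passed. Sox11 at 0.27, Dcx at 0.091 and Elavl3 at 0.62 turned positive without passing. Each scaling shifts all genes by nearly the same amount, 0.38 and 0.91 in the median of all genes on the log2 scale. It therefore says nothing on how these genes stand against all others. Scaled to the whole list 7767 of 15187 genes passed as higher and 627 as lower, and without Lin28a 11859 and 321. With so many genes passing the adjustment is milder, so adjusted p-values under these scalings cannot be set against those of the other fits. Neurog1 rests on 2 and 1 mutant reads under any scaling.

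As a plain ratio, the summed CPM of the genes without Sox11 came to 6.76% and 5.19% of the progenitor sum without Lin28a in mutant libraries, 8.83% and 7.36% in heterozygous libraries and 8.79% and 8.83% in wild-type libraries. To the whole progenitor sum it came to 2.57% and 1.98% in mutant, 3.95% and 4.0% in heterozygous and 4.84% and 4.90% in wild-type libraries. Sox11 supplied most of the reads of the 9 genes, and with it the direction depended on Lin28a. With Sox11 included the ratio to the sum without Lin28a was 33.6% and 33.8% in mutant, 31.3% and 28.9% in heterozygous and 31.7% and 31.9% in wild-type libraries. The ratio to the whole progenitor sum was 12.8% and 12.9% in mutant, 14% and 15.7% in heterozygous and 17.5% and 17.7% in wild-type libraries. The sum of the 9 genes itself was 236 and 258 CPM in mutant, 327 and 357 CPM in heterozygous and 455 and 455 CPM in wild-type libraries.

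Heterozygous heads were compared with wild type next. Most of the genes lay between the mutant and wild-type values, but only Sox11 passed the test. It stood at 28.0 and 31.1 RPKM in heterozygous libraries, against 38.2 and 38.5 RPKM in wild-type libraries (log2 fold change -0.37, SE 0.08, adjusted p = 0.0482). That is 1 of 8 tested genes lower, beside 0.533% of all genes, and 0 of 8 higher, beside 6.03%; in either direction 6.56% of all genes passed. The call was lost in 14 of 19 alternatives. Among these were leaving out any 1 of the 6 libraries, a term for sex (adjusted p = 0.162) and the files as attached (-0.05). Both progenitor scalings, library totals and both fits on log2 RPKM also lost it. Against the wild-type library of the same sex alone, replicate 1, Sox11 kept its size at -0.37 but did not pass (adjusted p = 0.157).

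Map2 had 492 and 642 reads in heterozygous libraries, against 1205 and 1005 reads in wild-type libraries, and its log2 fold change of -0.63 (SE 0.15) had an adjusted p of 0.0718. It passed without heterozygous replicate 2 (-0.86, adjusted p = 0.0298), in DESeq2 (adjusted p = 0.0105) and in the likelihood ratio test (adjusted p = 0.0237). Neurog2 had 39 and 43 reads in heterozygous libraries, against 97 and 70 reads in wild-type libraries (-0.69, SE 0.43, adjusted p = 0.387). Neurog1 differed between the heterozygous libraries, with 3 and 14 reads, against 68 and 23 reads in wild-type libraries (-2.02, SE 0.79, adjusted p = 0.196). Both heterozygous libraries were lower than both of wild type in 7 of the 8 tested genes, beside 27.6% of all genes, yet for Neurog1 the spread within each genotype was wide. Tubb3 at -0.49 (SE 0.21, adjusted p = 0.226), Stmn2 at -0.30 (SE 0.12, adjusted p = 0.204) and Dcx at -0.41 (SE 0.37, adjusted p = 0.551) did not pass; Tubb3 passed when fitted on heterozygous and wild-type libraries alone (adjusted p = 0.0293) and without mutant replicate 1 (adjusted p = 0.0384) or mutant replicate 2 (adjusted p = 0.0371). Elavl3 went the other way, at 1.17 and 0.832 RPKM in heterozygous libraries, against 0.782 and 0.719 RPKM in wild-type libraries (0.42, 95% interval -0.14 to 0.98, adjusted p = 0.327). Neurod1 had 3 and 0 reads in heterozygous libraries, against 4 and 3 reads in wild-type libraries.

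In mutant against heterozygous heads, which share their libraries with the comparisons above, Map2 and Stmn2 passed as lower. This is 2 of 8 tested genes, beside 0.362% of all genes, and 0 were higher, beside 0.0724%; in either direction 0.435% of all genes passed. Both mutant libraries lay below both heterozygous ones in all 8 genes, beside 26.4% of all genes. Map2 stood at 1.33 and 1.27 RPKM in mutant libraries, against 2.88 and 3.89 RPKM in heterozygous libraries (log2 fold change -1.37, SE 0.16, adjusted p = 0.0434). Stmn2 stood at 7.54 and 7.51 RPKM in mutant libraries, against 16.4 and 13.4 RPKM in heterozygous libraries (-0.98, SE 0.12, adjusted p = 0.04998). Neurog2 at -2.18 (SE 0.49, adjusted p = 0.103), Tubb3 at -0.95 (SE 0.21, adjusted p = 0.102), Neurog1 at -2.56 (SE 1.08, adjusted p = 0.247), Elavl3 at -0.71 (SE 0.23, adjusted p = 0.167), Sox11 at -0.27 (SE 0.08, adjusted p = 0.138) and Dcx at -0.41 (SE 0.39, adjusted p = 0.582) did not pass. All mutant libraries were female and all heterozygous ones male, so sex and genotype cannot be told apart within this pair; with a term for sex, estimated from the wild-type libraries, neither Map2 (adjusted p = 0.403) nor Stmn2 (adjusted p = 0.309) passed. Leaving out 1 library ended the Stmn2 call in each of 6 cases (adjusted p = 0.0521 to 0.206) and the Map2 call in 5 (adjusted p = 0.0512 to 0.191), all but heterozygous replicate 1; Tubb3 passed without mutant replicate 1 (-1.34, adjusted p = 0.0324). Neurog2 passed in DESeq2 (adjusted p = 0.0134) and in the likelihood ratio test (adjusted p = 0.00557). It also passed in edgeR under both progenitor scalings (adjusted p = 0.0388, and 0.0182 without Lin28a). Under these scalings 3310 genes passed as higher and 190 as lower, and 9954 and 161 without Lin28a. The adjustment is milder there, so these 2 values cannot be set against the other fits. Tubb3 also passed in DESeq2 (adjusted p = 0.000964) and in the likelihood ratio test (adjusted p = 0.00369), and Sox11 in DESeq2 (adjusted p = 0.0284). Under the progenitor scaling without Lin28a, however, Sox11 turned to 0.33 and passed as higher, beside a median of 0.60 over all genes.

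Across the 3 genotypes 7 of the 8 tested genes had both mutant libraries below both heterozygous ones and those below both of wild type, beside 11.5% of all genes tested. The exception was Elavl3. The genes whose levels were most like the mean profile of the 8 were Fbln7, Klhl42, Serinc2, C2cd5, Slain1 and Stx6, with Pearson correlations of 0.997 to 0.998 over 6 libraries, none of them a proneural gene. Of 12602 other genes 577 had a correlation over 0.95, and all points share the libraries and their tissue makeup. Among the 8 themselves the correlation with that profile, to which each contributes, ran from 0.984 for Map2 to 0.548 for Elavl3.

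Other lists of neurogenesis show how far the change reached among related genes in mutant heads. Of 22 other proneural and neuronal differentiation factors 12 could be tested, and 3 were lower and 0 higher (median log2 fold change -0.66, against -0.02 over all genes). Over all genes tested 13.6% were lower and 17.1% higher, so 3 of 12 lower is not far from that share. Ebf3 (-0.78, SE 0.15, adjusted p = 0.0147) and Ebf2 (-1.32, SE 0.32, adjusted p = 0.0274), factors of early neuron differentiation, fell. Scaled to the progenitor list neither passed (adjusted p = 0.0856 for Ebf3 and 0.0544 for Ebf2), and without Lin28a in it Ebf3 turned to 0.13 and Ebf2 stood at -0.40. Myt1 at -1.83 (SE 0.62, adjusted p = 0.0731) did not pass. The 10 genes without a test, among them Neurog3, Atoh1 and Neurod4, had at most 11 reads in any library.

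Of 27 other early neuron genes 25 could be tested. In mutant heads 12 were lower and 0 higher (median -0.66), beside 13.6% and 17.1% of all genes tested. Crmp1, a mediator of semaphorin signals, stood at 42.1 and 43.8 CPM in mutant, 70.7 and 77.4 CPM in heterozygous and 98.9 and 91.8 CPM in wild-type libraries; it was lower in mutant (-1.15, SE 0.07, adjusted p = 0.000654) and in heterozygous heads (-0.36, SE 0.07, adjusted p = 0.0442), each against wild type. Scaled to the progenitor list, the heterozygous difference of Crmp1 did not pass (-0.22, adjusted p = 0.162), nor without Lin28a (adjusted p = 0.719). L1cam, an axonal adhesion protein, changed by -2.31 (SE 0.26, adjusted p = 0.00313), Dclk1, a relative of Dcx, by -1.71 (SE 0.26, adjusted p = 0.00708) and Elavl2, a relative of Elavl3, by -0.92 (SE 0.13, adjusted p = 0.00622). In mutant heads all 4 passed when scaled to the whole progenitor list, while without Lin28a L1cam and Dclk1 passed and Crmp1 (-0.24, adjusted p = 0.0862) and Elavl2 (-0.013, adjusted p = 0.933) did not. The remaining 13 tested genes, such as the neurofilament gene Nefl and the axonal Map1b, did not pass.

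Genes that proneural factors are known to act through or with did not move as a block. Of 12 Notch ligands and other downstream genes 3 were higher and 1 lower (median 0.48), shares near the 17.1% and 13.6% of all genes tested. Cdkn1c, a cell cycle inhibitor, was higher at 1.58 (SE 0.18, adjusted p = 0.00305), as were the corepressor Cbfa2t3 at 1.77 (SE 0.21, adjusted p = 0.00364) and Dll4, a Notch ligand of endothelium, at 0.99 (SE 0.15, adjusted p = 0.00745). Mfng, a fringe that modifies Notch, was lower at -1.77 (SE 0.21, adjusted p = 0.00371). In heterozygous heads Cdkn1c (1.52, SE 0.17, adjusted p = 0.00870) and Cbfa2t3 (1.39, SE 0.21, adjusted p = 0.0195) were higher than in wild type as well. Yolk sac and heart genes were higher in the same libraries, as their sums show, and their part in these rises was not tested.

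Among 11 inhibitors of proneural factors 2 were higher and 2 lower (median -0.08), again near the 17.1% and 13.6% of all genes. Id2 at 0.38 (SE 0.07, adjusted p = 0.0152) and Id1 at 0.33 (SE 0.07, adjusted p = 0.0208), which bind E proteins away from proneural factors, were higher. Id4 at -1.22 (SE 0.19, adjusted p = 0.00774) and Hes5, a Notch-driven repressor of neural progenitors, at -2.28 (SE 0.56, adjusted p = 0.0292) were lower; scaled to the progenitor list without Lin28a, Id4 at -0.31 (adjusted p = 0.169) did not pass. Of the 3 E protein genes Tcf12 was lower at -0.76 (SE 0.10, adjusted p = 0.00445), while Tcf3 at -0.17 (adjusted p = 0.0611) and Tcf4 at -0.16 (adjusted p = 0.116) did not pass. Scaled to the progenitor list without Lin28a, Tcf12 turned to 0.16 without passing and Tcf3 and Tcf4 to 0.74 and 0.76, both passing as higher. Under that scaling the median of all genes was 0.89 and 11859 of 15187 genes passed as higher. The passes of Tcf3 and Tcf4 are therefore not a rise against other genes.

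Placode genes are of interest because cranial sensory neurons arise there. They were lower in 6 of 11 cases and higher in 0 (median -0.86), beside 13.6% and 17.1% of all genes tested. Eya1 stood at -0.94 (SE 0.07, adjusted p = 0.00110), Eya2 at -0.99 (SE 0.12, adjusted p = 0.00389) and Pax8 at -2.35 (SE 0.41, adjusted p = 0.0108). Eya1 was lower in heterozygous heads too (-0.57, SE 0.07, adjusted p = 0.0128), but not when scaled to the progenitor list without Lin28a (adjusted p = 0.159). Scaled to the progenitor list without Lin28a, Eya1 and Eya2 did not pass in mutant heads (adjusted p = 0.837 and 0.712), and Pax8 did at -1.44. Under that scaling 2 placode genes were lower and 4 of 11 higher, and 3 other early neuron genes lower and 7 of 25 higher, beside the 11859 of 15187 genes that the shift carried past the threshold as higher.

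**Figure D4:**
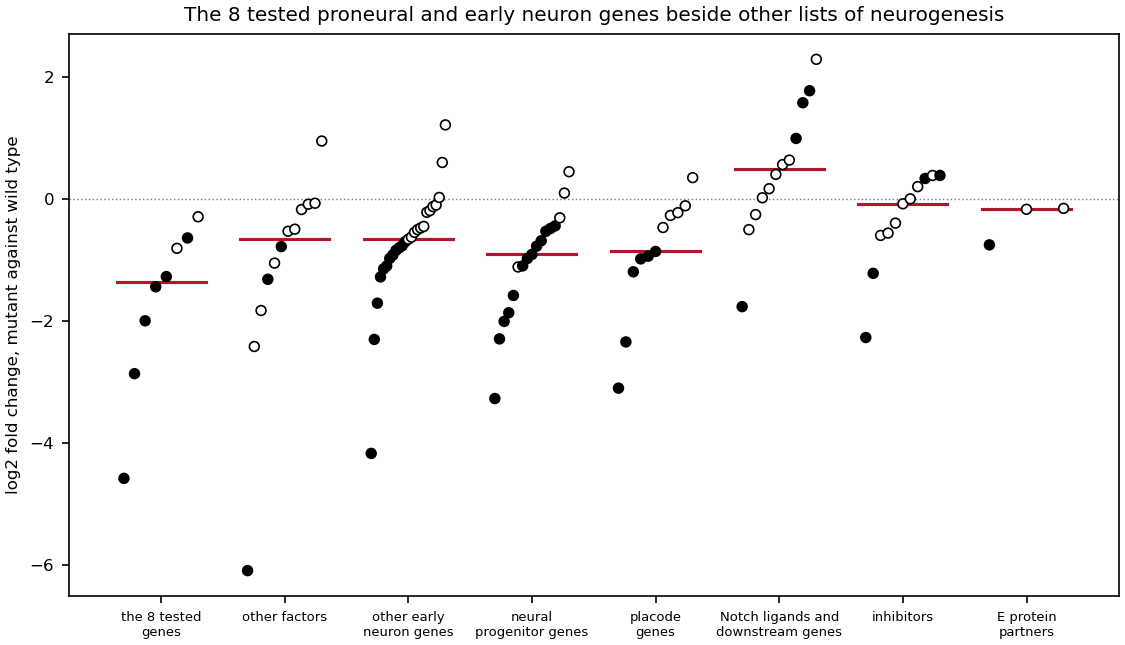
Log2 fold change of mutant against wild type (vertical axis) for each tested gene of 8 lists, ordered by value within a list; filled points passed at an adjusted p of 0.05 and red bars are medians. The 8 tested proneural and early neuron genes have a median of -1.36, and the Notch ligands and downstream genes have a median of 0.48.

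In the authors' deposited table, which gives a likelihood ratio test of mutant against wild type, 6 of the 9 genes have a false discovery rate under 0.05 and are lower, beside 5.56% of its 24062 genes. Map2 has a rate of 5.27e-16 there, Stmn2 8.06e-11, Tubb3 3.05e-10, Sox11 7.73e-08, Neurog1 0.000101 and Neurog2 0.000146 in the authors' deposited table. Elavl3 (0.868), Dcx (0.567) and Neurod1 (0.589) do not pass in the authors' deposited table.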

How the data were processed

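Per the labels' protocols, polyA-selected RNA from E8.5 heads was made into stranded libraries. The submitters' processing notes name TopHat2 (2.0.11), HTSeq (0.6.1p2), edgeR (3.8.6) and the build mm10; the sources used here give no annotation, gene lengths or strand setting, so overlapping and antisense genes are uncertain. Deposited files hold a raw count for each gene and library; 5 summary lines (no feature 8.93% to 10.5%, ambiguous 1.04% to 1.08%, not unique 12.7% to 14.5% of reads) were left out. A table by the authors gives RPKM per title, log2 fold changes, likelihood ratio scores, and p-values with false discovery rates; its comparison over all genotypes was not used.

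Differences between genotypes were tested with glmQLFit and glmQLFTest (edgeR 4.0.16, R 4.3.3), with TMM, filterByExpr by genotype, 6 libraries in 1 fit, 3 degrees of freedom left and p-values adjusted after Benjamini and Hochberg. A standard error is the log2 fold change over the square root of F. Single-gene CPM use TMM sizes, and list sums use library totals. Alternatives used DESeq2 1.42.0 and limma 3.58.1 (voom, and log2(RPKM + 0.1) or log2(RPKM + 1)). The exact intervals of ratios of summed reads and the limit of 3 reads cover counting error only. Intervals of log2 fold changes rest on the standard errors of the edgeR fit, which include the spread between libraries. Sex was read from over 1000 Xist reads. Only the edgeR fit of mutant against wild type was tried on simulated data, with far fewer changed genes than here. Its outcome is not given, and the other comparisons and alternatives were not simulated. Genes, lists and tests were chosen with earlier results of these data known. Named were all 9 genes, up to 4 of each list with the smallest p in mutant heads, up to 4 more that passed in heterozygous heads, and the 6 most similar profiles among genes averaging at least 1 CPM. Some genes that this rule names are not reported here. Nefl, Map1b and untested genes were named after their values were seen, and of the lists of other tissues only sums and counts are given. Gene positions are from GENCODE M21 (GRCm38).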

Additional observations from a re-analysis of the deposited data

How the results depend on the processing

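No paired analysis was possible because the labels give no replicate numbers. Of the 6 genes lower in mutant against wild-type heads, Neurog2, Map2, Tubb3, Stmn2 and Sox11 kept call and direction under every alternative except the files as attached and, for Tubb3, Stmn2 and Sox11, the scaling without Lin28a; Neurog1 also lost its call with a sex term (adjusted p = 0.0648) and without mutant replicate 1 or 2 or wild-type replicate 1 (adjusted p = 0.0776 to 0.104). The fits reported gave 4654 genes in mutant against wild type (A), 997 in heterozygous against wild type (B) and 66 in mutant against heterozygous (C), with 6, 1 and 2 members (of the 8 tested proneural and early neuron genes) lower. With the files as attached 0 members and 0 genes passed in A, B and C, with an unadjusted p under 0.05 for 318 genes in A, 48 in B and 422 in C, and signs turned for Sox11 (0.070) and Stmn2 (0.11) in A, Map2 (0.031), Neurog2 (0.10) and Stmn2 (0.26) in B, and Neurog1 (0.31) and Sox11 (0.12) in C; this setting exchanges 1 mutant and 1 wild-type library. Scaled to the progenitor list Elavl3 turned to 0.082 in A; 8394 genes passed in A, 1704 in B and 3500 in C, with 7767 higher and 627 lower in A in place of 2594 and 2060, and 0 members in B. Without Lin28a 12180, 2506 and 10115 genes passed, with 3 members lower in A and 0 in B; Dcx (0.091), Elavl3 (0.62) and Sox11 (0.27) turned in A, Stmn2 (0.028) in B, and Dcx (0.18) and Sox11 (0.33, adjusted p = 0.0295) in C. Library totals gave 2328 higher and 2709 lower genes in A and 0 members in B. A sex term gave 2500, 516 and 4 genes, and 0 members in B and C. In B and C DESeq2 gave 1890 and 1313 genes with 2 and 5 members, and the likelihood ratio test 1579 and 801 genes with 2 and 4 members. In C limma-voom gave 0 members (unadjusted p under 0.05 in 3190 genes), RLE 1, the 2 genotypes alone 1 (106 genes) and no count filter 182 genes; log2(RPKM + 0.1) and log2(RPKM + 1) each gave 0 members in B and 1 in C. Leaving out single libraries gave 1997 to 4265 genes with 5 to 6 members in A, 313 to 748 genes with 0 to 1 member in B and 11 to 81 genes with 0 to 1 member in C. Except where stated above, the cause was not tested. Neurog1, Neurog2, Neurod1 and Dcx are limited by depth, with at most 97 reads in any library.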
